A study of Mus musculus with 20 samples.

Results

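The 10 genes described here are Tfap2c, Tfap2a, Gata3, Gata2, Cdx2, Eomes, Krt8, Krt18, Elf3 and Fabp3, which mark or specify the trophectoderm (TE), the outer epithelium of the blastocyst. They were chosen by symbol from the 34937 genes counted in single mouse 8-cell (8C) embryos, and each was measured in all 19 embryos with counts. Of the 10 genes, 7 had enough counts for the test across 11754 genes, and Tfap2a, Gata2 and Cdx2 did not.

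The study asked what maternally inherited G9a, the histone H3 lysine 9 methyltransferase encoded by Ehmt2, does before implantation. The 9 control embryos (Ehmt2Cntr) had Ehmt2F/+ mothers and the 10 maternally depleted embryos (Ehmt2Mat) had Ehmt2F/- mothers, with F the conditional allele. All mothers carried Zp3-Cre, which acts in the growing oocyte and therefore removes the conditional allele from the egg and not from the mother's other cells, and were mated with Ehmt2+/- males. By zygotic genotype, 6 controls were +/+ and 3 were +/-, while 5 Ehmt2Mat embryos kept a functional paternal copy (+/-, named Ehmt2M/+) and 5 had none (-/-, named Ehmt2M/Z). Embryos of normal morphology were taken at 8C after natural mating, and cDNA of each was amplified by a protocol that favours the 3′ end of transcripts. The labels name no mother or litter, so that the p-values measure the spread between these embryos, and the mother cannot be told apart from the maternal genotype.

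In the mouse, outer cells of the morula become polar and switch off Hippo signalling, which lets the cofactor YAP enter the nucleus and act with the TEAD4 protein. TEAD4 and YAP turn on Cdx2 and Gata3, while the AP-2 factor encoded by Tfap2c acts earlier, during compaction and polarisation. Eomes encodes a T-box factor of the TE and Elf3 an ETS factor of epithelia, and Krt8 and Krt18 encode the paired keratins of simple epithelia. At 8C this programme is only beginning.

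Stretches of genomic sequence before a RefSeq start of 4 of the genes are shown because Elf3 was one of the called genes, Krt8 and Krt18 are neighbours on chromosome 15 and Gata3 is a direct target of the early programme. They come from the RefSeq promoter table (build GRCm38.p6), which has an entry for 9 of the 10 genes, and each is read on the gene's own strand and holds no base of an annotated exon of the gene. The stretches of Elf3, Krt8 and Krt18 lie upstream of the annotated gene. That of Gata3 lies in an intron, 11184 bases downstream of the annotated 5′ end of the gene, since longer transcripts begin before the RefSeq start. Capitals mark 3 kinds of run. Factors of the TEAD family bind the letters GGAATG. The GATA proteins bind sites that hold the letters AGATAA. A core of AP-2 sites is GCCNNNGGC.
Elf3, chr1:135258569-135258722, minus strand: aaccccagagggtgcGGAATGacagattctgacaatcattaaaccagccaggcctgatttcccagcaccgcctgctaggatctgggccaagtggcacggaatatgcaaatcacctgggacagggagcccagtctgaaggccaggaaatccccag
Krt8, chr15:102004483-102004592, minus strand: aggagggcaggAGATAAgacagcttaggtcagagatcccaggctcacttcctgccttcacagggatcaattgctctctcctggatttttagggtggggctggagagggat
Krt18, chr15:102027966-102028179, plus strand: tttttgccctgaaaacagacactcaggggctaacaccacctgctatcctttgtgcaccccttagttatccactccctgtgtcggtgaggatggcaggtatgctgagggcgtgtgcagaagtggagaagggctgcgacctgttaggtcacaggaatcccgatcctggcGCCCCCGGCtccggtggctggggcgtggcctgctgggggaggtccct
Gata3, chr2:9878601-9878850, minus strand: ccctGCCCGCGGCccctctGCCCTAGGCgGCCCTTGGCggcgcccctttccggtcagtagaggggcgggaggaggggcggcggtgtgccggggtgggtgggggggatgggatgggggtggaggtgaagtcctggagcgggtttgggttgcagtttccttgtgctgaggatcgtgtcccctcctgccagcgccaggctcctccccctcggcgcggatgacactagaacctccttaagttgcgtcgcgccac

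The letters were searched on both strands in the 250 bases before each RefSeq start, together with the T-box run AGGTGTGA that EOMES-type factors bind. The TEAD letters stood in 2 of the 11 windows of these genes (Elf3 and a Gata2 start) and in 12.6% of all 32851 windows. The AP-2 letters stood in 4 of the 11 windows (Gata3, a Gata2 start, Cdx2 and Krt18) and in 13.7% of all windows. The GATA letters were found before Krt8 only, against 9.99% of all windows, and the T-box letters in none of the 11 windows, against 1.12% of all. The searched runs shared no bases with each other in the stretches shown. These are matches of letters and no measurement of binding.

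Expression is given as CPM, the counts of a gene relative to the library size of its embryo, with library sizes scaled by TMM normalization. The total count per embryo lay between 12985149 and 30053248 in controls and between 8231646 and 30602434 in Ehmt2Mat embryos, so that 3 counts, taken as the floor of detection, were worth between 0.0911 and 0.363 CPM. These limits cover counting error only. A level in a whole embryo does not tell fewer expressing blastomeres apart from less RNA in each of them. A list of 10 genes for the 8C embryo held Pou5f1, Cdh1, Dppa3, Zfp42, Nanog, Klf4 and Tead4, with the oocyte transcripts Zp3, Gdf9 and Bmp15. They summed to between 2063 and 3406 CPM in controls and between 2894 and 3715 CPM in Ehmt2Mat embryos. Tead4 was called higher and Klf4 lower in Ehmt2Mat embryos (below), so that the sum is not independent of the maternal genotype.

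RNA of oviduct markers tended to be higher in Ehmt2Mat embryos, but neither of the 2 markers with enough counts passed the test. The 7 markers of oviduct epithelium, the tissue that surrounds the embryo before it reaches the uterus, summed to between 0.0904 and 29.8 CPM in 8 controls and to 426 CPM in control embryo 10. They summed to between 9.84 and 2987 CPM in Ehmt2Mat embryos, with a median of 113 CPM, and exceeded 100 CPM in 5 of them. Most of this was Ovgp1, which encodes the secreted oviductal glycoprotein (up to 2799 CPM in Ehmt2Mat embryo 3), and none of the 7 markers was at 0 in every embryo. The 2 tested markers were Ovgp1 (log2 fold change 3.41, SE 1.27, adjusted p = 0.0926, edgeR) and Wfdc2 (2.55, SE 1.33, adjusted p = 0.254, edgeR). The 10 cumulus and granulosa markers reached 51.1 CPM in Ehmt2Mat embryo 3 and at most 7.37 CPM in any other embryo, and the 4 sperm and 5 blood markers reached at most 1.23 and 9.33 CPM. The fold changes of the tested genes and the counts of called genes in the related lists are therefore also given without the 6 embryos above 100 CPM of oviduct markers, a choice made after the data were seen. With the 8 controls and 5 Ehmt2Mat embryos that remain, 2.69% of 11952 tested genes were called.

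Reads on Ehmt2 itself had a median of 133 CPM in controls and 94.9 CPM in Ehmt2Mat embryos. By zygotic genotype, the controls had a mean of 141 ± 75.3 CPM (+/+, SD, n = 6) and of 143 ± 10.6 CPM (+/-, SD, n = 3). The Ehmt2M/+ mean was 121 ± 32.99 CPM and the Ehmt2M/Z mean 83.1 ± 20.4 CPM (SD, n = 5 each). The change in Ehmt2Mat embryos did not pass the test (log2 fold change -0.47, SE 0.24, adjusted p = 0.233, quasi-likelihood test of edgeR, adjusted by Benjamini-Hochberg over all genes tested). The counts cover all exons of the gene, including any that the recombined allele retains, so that they check the labels only in part.

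Per kb of exon, the order of the levels in controls was led by Tfap2c. Its median was 48.3 CPM per kb, followed by Elf3 at 11.7, Krt18 at 3.58, Krt8 at 1.93, Gata3 at 1.88, Fabp3 at 1.65 and Eomes at 1.04 CPM per kb. Gata2 had a median of 0.00837 CPM per kb, and Cdx2 and Tfap2a had medians of 0. Tfap2c stood above Elf3 in 8 of 9 controls and was the highest of the 10 genes in those 8 controls and in all 10 Ehmt2Mat embryos. The middle of the order was not separated beyond the spread, since Krt8 was above Gata3 in 6 of 9 controls and Gata3 above Fabp3 in 3 of 9. Because amplification favours the 3′ end, the division by exon length may overcorrect long genes. Between 5 and 9 of the 10 genes had at least 3 counts in a control embryo, and between 6 and 9 in an Ehmt2Mat embryo.

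**Figure D1:**
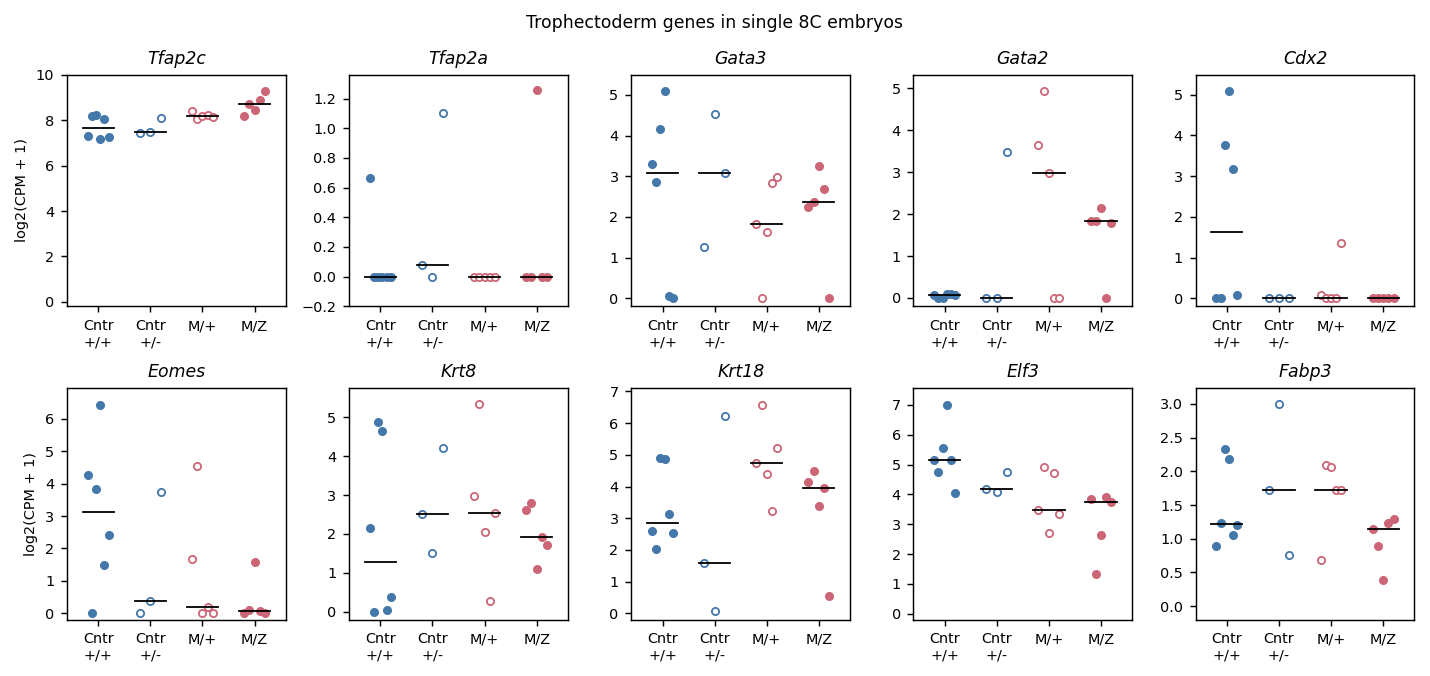
Levels of the 10 trophectoderm genes, as log2(CPM + 1) on a separate vertical axis for each gene, in the 19 embryos by maternal and zygotic genotype (blue, controls; red, Ehmt2Mat; open points, zygotic +/-; lines, medians). Tfap2c was present in every embryo, while Cdx2, Gata2 and Eomes were near 0 in many embryos and high in a few, and Tfap2a stayed at or below 1.4 CPM.

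Between Ehmt2Mat and Ehmt2Cntr embryos, 2 of the 7 tested genes passed an adjusted p of 0.05. Tfap2c rose and Elf3 fell, while over all 11754 tested genes 9.35% passed, 4.37% as higher and 4.98% as lower in Ehmt2Mat embryos. The other 5 tested genes did not pass, with log2 fold changes between -2.52 (Eomes) and 0.54 (Krt18). The median log2 fold change of the 7 was -0.55, against -0.04 over all tested genes.

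Tfap2c, on chromosome 2 (172549593-172558622, plus strand, GRCm38), encodes the AP-2γ factor and was the most abundant of the genes. Its level was 141 CPM in the lowest, 178 CPM in the median and 302 CPM in the highest control. In Ehmt2Mat embryos it was 265, 317 and 616 CPM. All 10 Ehmt2Mat embryos stood above the control median and 5 stood above every control, while the 5 lowest controls stood below every Ehmt2Mat embryo. Of those above every control, Ehmt2Mat embryo 2 (338 CPM) had the zygotic genotype +/-. Embryos 4, 5, 7 and 9 were -/-, a genotype that no control had. The log2 fold change was 0.75 (SE 0.20, adjusted p = 0.0183, edgeR quasi-likelihood test). The call held without each embryo in turn, with adjusted p between 0.0132 and 0.0389 over these 19 fits. In zygotic +/- embryos only, 3 controls and 5 Ehmt2Mat embryos, the log2 fold change was 0.49 (SE 0.28, adjusted p = 0.851, edgeR). Without the 6 embryos with most oviduct marker RNA the log2 fold change was 0.95, at an adjusted p of 0.0535 by edgeR with 8 controls and 5 Ehmt2Mat embryos. The level of Tfap2c did not follow that of the oviduct markers (r = -0.06 over the 19 embryos with group means removed, permutation p = 0.815).

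Elf3, on chromosome 1 (135253575-135258568, minus strand), encodes an ETS factor of epithelial cells. In controls its level was 15.7 CPM at the lowest, 25.9 CPM at the median and 128 CPM at the highest, which was control embryo 7. In Ehmt2Mat embryos it was 1.52, 11.4 and 29.6 CPM, so that 8 of 10 stood below every control and 4 controls stood above every Ehmt2Mat embryo. The log2 fold change was -1.59 (SE 0.47, adjusted p = 0.0329, edgeR quasi-likelihood test). The value leaned on control embryo 7, since without it the log2 fold change was -1.09 and the adjusted p 0.125. It also rose above the threshold, to between 0.0512 and 0.0561, without control embryo 6 or Ehmt2Mat embryo 1, 2, 5 or 6.

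Between embryos that shared a zygotic genotype the estimated change of Elf3 was smaller, but its standard error was wide. It was not tested against the whole comparison. The 3 controls with the zygotic genotype +/- had 15.9, 17.1 and 25.8 CPM, and the 5 Ehmt2M/+ embryos of the same zygotic genotype had 10.2 CPM at the median and between 5.56 and 29.6 CPM. Between these 8 embryos the log2 fold change of Elf3 was -0.32 (adjusted p = 0.99) and that of Tfap2c was 0.49 (adjusted p = 0.851), where edgeR called 1 of 13401 genes. Without the 6 embryos with most oviduct marker RNA, the log2 fold change of Elf3 over all genotypes was -1.58, with an adjusted p of 0.15. The level of Elf3 did not follow the oviduct markers either (r = -0.07, permutation p = 0.778).

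Reads near Elf3 could be shared with an antisense gene, as the counting did not use strand. Gm26642 lies on the plus strand and shares 162 exon bases, 7.31% of the exon bases of Elf3. It had between 340 and 1489 counts per embryo and a log2 fold change of 0.10 (SE 0.26, adjusted p = 0.873, edgeR), while Elf3 had between 50 and 1667 counts.

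**Figure D2:**
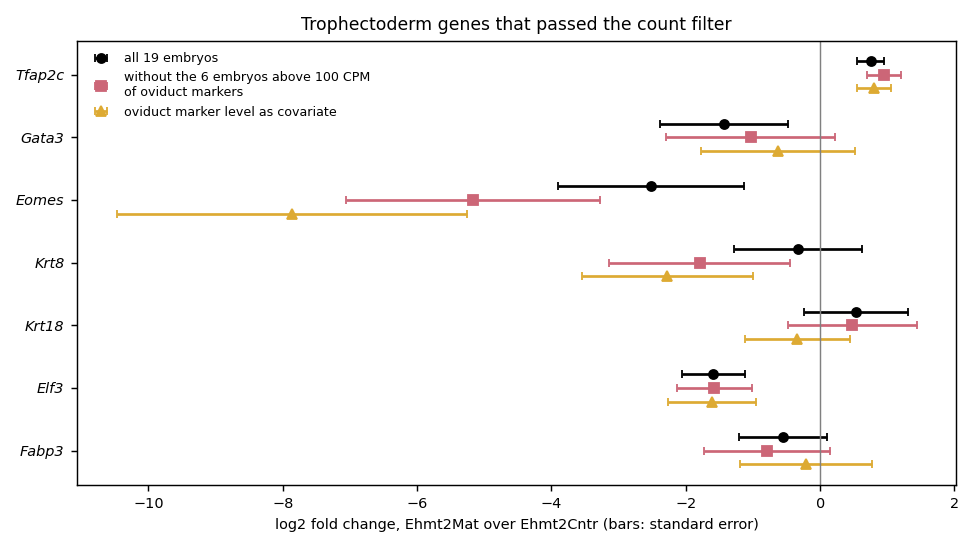
Log2 fold change of the 7 tested genes in Ehmt2Mat over Ehmt2Cntr embryos, with standard errors, in all 19 embryos (black), without the 6 embryos above 100 CPM of oviduct markers (red) and with the oviduct marker level as a covariate (yellow). Tfap2c lay between 0.75 and 0.95 and Elf3 between -1.61 and -1.58 in the 3 fits, while Eomes and Krt8 moved by more than a log2 unit.

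Gata3 and Cdx2 are direct targets of TEAD4 and YAP in outer cells. Gata3, on chromosome 2 (9857078-9890034, minus strand), had 0, 7.48 and 33.2 CPM at the lowest, median and highest in controls and 0, 3.95 and 8.45 CPM in Ehmt2Mat embryos. The 4 highest controls stood above every Ehmt2Mat embryo, but 2 controls were at or below 0.0382 CPM, and the groups overlapped. The log2 fold change of -1.43 (SE 0.96) did not pass the test (adjusted p = 0.396, edgeR). It was -1.04 (SE 1.26, adjusted p = 0.768) without the 6 embryos with most oviduct marker RNA.

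Cdx2, on chromosome 5 (147300805-147307270, minus strand), was at the floor in most embryos. It had at least 3 counts only in control embryos 6 (12.6 CPM), 7 (33.1 CPM) and 8 (7.99 CPM) and in Ehmt2Mat embryo 10 (1.56 CPM). The median was 0 in both groups and the values overlapped. The mean of log2(CPM + 1) was 1.35 in controls and 0.14 in Ehmt2Mat embryos, and an exact two-sided permutation test over all 92378 splits gave p = 0.108 before any adjustment. Without a filter on low counts, edgeR gave an adjusted p of 0.0582. All 3 controls with Cdx2 had the zygotic genotype +/+, which 6 of the 9 controls had, and this split was not tested. In Ehmt2Mat embryos the floor was reached by 1 of the 5 Ehmt2M/+ embryos and by none of the 5 Ehmt2M/Z embryos.

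Gata2, on chromosome 6 (88193891-88207032, plus strand), had the opposite distribution. It was at or below 0.0769 CPM in 8 controls and at 10.2 CPM in control embryo 10. In Ehmt2Mat embryos it was 0 at the lowest, 2.57 CPM at the median and 29.6 CPM at the highest, with at least 3 counts in 7 of 10. The mean of log2(CPM + 1) was 0.43 in controls and 1.92 in Ehmt2Mat embryos (exact permutation p = 0.0327 before any adjustment). Without a filter on low counts, edgeR gave Gata2 an adjusted p of 0.327 over 21185 genes.

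The level of Gata2 moved with the oviduct markers. Control embryo 10, the only control with Gata2 above the floor, was also the only control above 100 CPM of those markers. All 5 Ehmt2Mat embryos above 100 CPM had Gata2 between 2.55 and 29.6 CPM, while 3 of the other 5 had none and the highest had 3.41 CPM. Over the 19 embryos with group means removed, r was 0.86 (permutation p = 2e-05, 0.0002 adjusted over the 10 genes) and Spearman's rho 0.80 (permutation p = 8e-05, 0.0008 adjusted). Within the 10 Ehmt2Mat embryos r was 0.89 (permutation p = 0.00066), and r was 0.73 without control embryo 10 and Ehmt2Mat embryo 3, which lay farthest from the median marker level. The part of oviduct RNA in the counts of Gata2 was not tested.

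**Figure D3:**
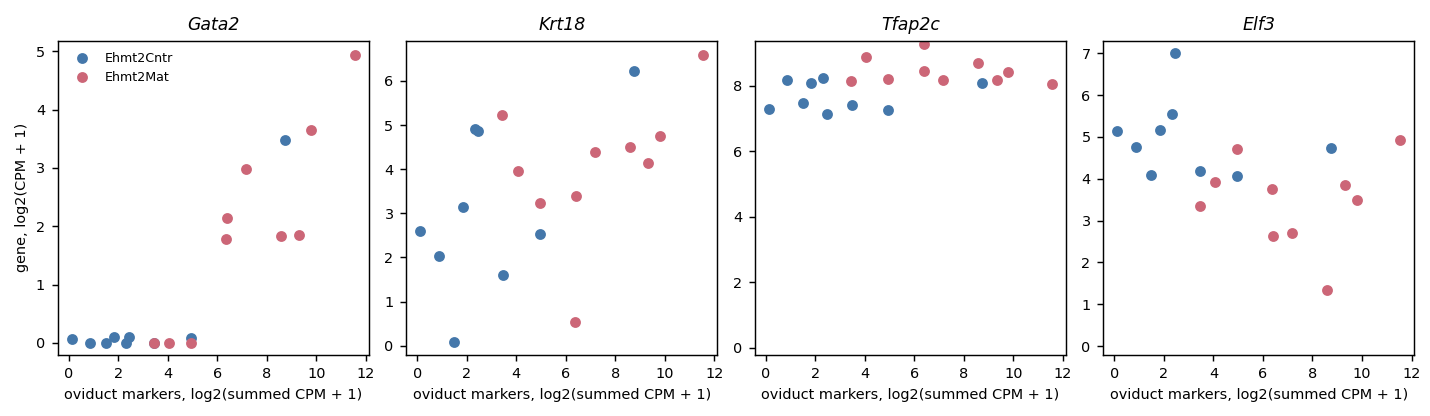
Level of Gata2, Krt18, Tfap2c and Elf3 against the summed level of 7 oviduct epithelium markers, both as log2(CPM + 1), with a point for each embryo (blue, controls; red, Ehmt2Mat). Gata2 rose with the markers (r = 0.86 with group means removed), while Tfap2c and Elf3 did not follow them (r = -0.06 and -0.07).

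Tfap2a, on chromosome 13 (40715675-40733823, minus strand), encodes the related factor AP-2α. It had at least 3 counts in 2 controls (0.587 and 1.15 CPM) and in 1 Ehmt2Mat embryo (1.4 CPM), and none at all in 6 controls and 9 Ehmt2Mat embryos. No difference was detectable at these counts (exact permutation p = 0.652).

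Eomes, on chromosome 9 (118478212-118486132, plus strand), encodes a T-box factor needed in the TE. It had 0, 4.32 and 86.1 CPM at the lowest, median and highest in controls, with the highest value again in control embryo 7. In Ehmt2Mat embryos it had 0, 0.0547 and 22.5 CPM. Thus 7 of 9 controls but 4 of 10 Ehmt2Mat embryos reached 3 counts, and 9 of 10 Ehmt2Mat embryos stood below the control median. The log2 fold change was -2.52 (SE 1.38, adjusted p = 0.283, edgeR), and it was -5.16 at an adjusted p of 0.163 without the 6 embryos with most oviduct marker RNA. Ehmt2Mat embryo 3, which had the most oviduct marker RNA, was the 1 Ehmt2Mat embryo above 3 CPM.

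The keratins varied more between embryos than between groups. Krt8, on chromosome 15 (101996711-102004342, minus strand), had 0, 3.48 and 28.3 CPM at the lowest, median and highest in controls and 0.218, 3.99 and 39.1 CPM in Ehmt2Mat embryos. Krt18, its neighbour on the plus strand (102028216-102032026), had 0.0603, 5.02 and 73.6 CPM in controls and 0.462, 18.3 and 95.0 CPM in Ehmt2Mat embryos. Ranges of both genes overlapped almost fully, although 9 of 10 Ehmt2Mat embryos stood above the control median of Krt18. The log2 fold changes were -0.33 (SE 0.95, adjusted p = 0.888) for Krt8 and 0.54 (SE 0.77, adjusted p = 0.746) for Krt18, both by edgeR. They were -1.79 (SE 1.35, adjusted p = 0.573) for Krt8 and 0.48 (SE 0.96, adjusted p = 0.883) for Krt18 without the 6 embryos with most oviduct marker RNA.

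Both keratins were highest in Ehmt2Mat embryo 3, the embryo with the most oviduct marker RNA. The next highest levels of Krt8 stood in control embryos 6 (28.3 CPM) and 7 (24.2 CPM), whose markers summed to 3.98 and 4.46 CPM. Ehmt2Mat embryos 2 and 1, next in marker RNA with 883 and 636 CPM, had 6.82 and 5.1 CPM of Krt8. Krt18 was 73.6 CPM in control embryo 10 and 95.0 CPM in Ehmt2Mat embryo 3, its 2 highest levels, and 36.3 CPM in Ehmt2Mat embryo 10, which had 9.84 CPM of the markers. It had a median of 21.5 CPM in the 5 Ehmt2Mat embryos above 100 CPM of the markers and of 9.54 CPM in the other 5. With group means removed, r with the markers was 0.44 for Krt8 (permutation p = 0.0593) and 0.43 for Krt18 (permutation p = 0.0777). Spearman's rho was 0.52 (permutation p = 0.0211, 0.106 adjusted over the 10 genes) and 0.44 (permutation p = 0.0626, 0.209 adjusted). Without control embryo 10 and Ehmt2Mat embryo 3, r was 0.20 and 0.10. For each doubling of the marker level, the fit with that level as a covariate gave a log2 change of 0.28 for Krt18 (SE 0.11, adjusted p = 0.463) and of 0.35 for Krt8 (SE 0.17, adjusted p = 0.592), neither past the threshold. Krt19, a keratin of oviduct and other simple epithelia, changed by 0.63 for each doubling (SE 0.12, adjusted p = 0.0201), 1 of 34 genes called of 11754 in that edgeR fit. The part of oviduct RNA in the keratin counts was not tested. Of the 50-base windows of Krt8 transcripts, 29.7% also stood in other genes, most of them in the pseudogene Krt8-ps, and 0.72% of those of Krt18.

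Fabp3, on chromosome 4 (130308595-130315463, plus strand), encodes a fatty acid-binding protein and had few reads. Its level was 0.7, 1.36 and 6.99 CPM at the lowest, median and highest in controls and 0.31, 1.41 and 3.27 CPM in Ehmt2Mat embryos, and the groups overlapped. It had a log2 fold change of -0.55 (SE 0.65, adjusted p = 0.682, edgeR), and of -0.79 (SE 0.94, adjusted p = 0.763) without the 6 embryos with most oviduct marker RNA. Its counts may be affected by similar or overlapping genes. Of its 50-base transcript windows, 37.3% stood in other genes, and the pseudogene Fabp3-ps1 had nearly the same level (up to 5.66 CPM) and the profile most like it of all genes (r = 0.86). Its last exon also shares 81 bases with Zcchc17 on the other strand, which had between 140 and 1644 counts against 4 to 116 for Fabp3.

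Within Ehmt2Mat embryos, the zygotic copy of Ehmt2 made no called difference. Of 12195 tested genes edgeR called 0 (0%) between Ehmt2M/Z and Ehmt2M/+ embryos, with 270 at an unadjusted p under 0.05, and DESeq2 called 15 of 14629, none of them among the 10 genes. Of the 7 genes tested here, Gata2 included and Eomes not, Tfap2c alone had an unadjusted p under 0.05. Embryos without a zygotic copy averaged 428 ± 126 CPM and those with one 293 ± 27.6 CPM (SD, n = 5 each). This was a log2 fold change of 0.55 (SE 0.22), and its unadjusted p of 0.0277 became an adjusted p of 0.9997 in edgeR over all genes tested. Krt18 averaged 12.5 ± 7.99 CPM without and 37.1 ± 33.9 CPM with a zygotic copy (SD, n = 5 each), and its log2 fold change of -1.55 (SE 0.76) did not pass either.

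Several of these genes were uneven between embryos for their abundance. The biological coefficient of variation of edgeR, which is the spread beyond counting error, was 2.0 for Eomes, 1.36 for Gata3, 1.33 for Krt8, 1.09 for Krt18, 0.919 for Fabp3, 0.692 for Elf3 and 0.315 for Tfap2c. With all tested genes split by abundance into 10 parts of 1175 or 1176 genes, this placed Eomes at percentile 99.9, Krt18 at 99.15, Gata3 at 95.6, Krt8 at 95.15 and Elf3 at 82.55, but Tfap2c at 46.3 and Fabp3 at 5.87 within their part. Tfap2c was thus near the middle of equally abundant genes, while Eomes, Gata3 and both keratins were above at least 95% of theirs.

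The 21 pairs of tested genes were then compared across the 19 embryos, with group means removed. This takes out the mean difference between the maternal genotypes, while spread and correlation within each of them still enter. No pair passed after Benjamini-Hochberg adjustment over the 21 (0 with Pearson's r and 0 with Spearman's rho), and 3 pairs had an unadjusted p under 0.05. The highest r was between Eomes and Krt18, at 0.60 (permutation p = 0.0101, adjusted 0.212) with rho 0.57 (permutation p = 0.0178, adjusted 0.187), and it was 0.49 without control embryo 7 and Ehmt2Mat embryo 3, the farthest in Eomes. Eomes and Krt8 followed with r of 0.55 (permutation p = 0.0285, adjusted 0.269) and rho of 0.43 (permutation p = 0.0948, adjusted 0.546), which fell to an r of 0.34 without the same embryos. Eomes and Elf3 had an r of 0.48 (permutation p = 0.0391, adjusted 0.269), which was 0.15 without them and so rested on these embryos. Krt8 and Krt18 had the highest rho, 0.66 (permutation p = 0.00489, adjusted 0.103), with r of 0.49 (permutation p = 0.0512, adjusted 0.269).

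No correlation of Tfap2c with another of these genes was detected. Its r with each of the other 6 lay between -0.26 and -0.11, with the smallest unadjusted permutation p at 0.29. The sign of r turned when 1 embryo was left out for Gata3 and Krt18 (0.12 and 0.17, both without Ehmt2Mat embryo 9) and for Elf3 (0.016 without control embryo 7). In Ehmt2Mat embryos its r with Krt18 was -0.77 (permutation p = 0.0142 before adjustment), and in controls 0.31, a difference that was not tested. Ehmt2Mat embryo 9 had the highest Tfap2c (616 CPM) and the lowest Krt18 of its group (0.462 CPM). Over both groups, the r of this pair was 0.055 without that embryo and control embryo 6. The median r of the 21 pairs was 0.10, against 0.0029 over all pairs of tested genes, and 13 of the 21 were positive (50.4% of all pairs). Without the 6 embryos with most oviduct marker RNA no pair passed either, and the r of Eomes and Krt18 was 0.54 (permutation p = 0.0645).

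**Figure D4:**
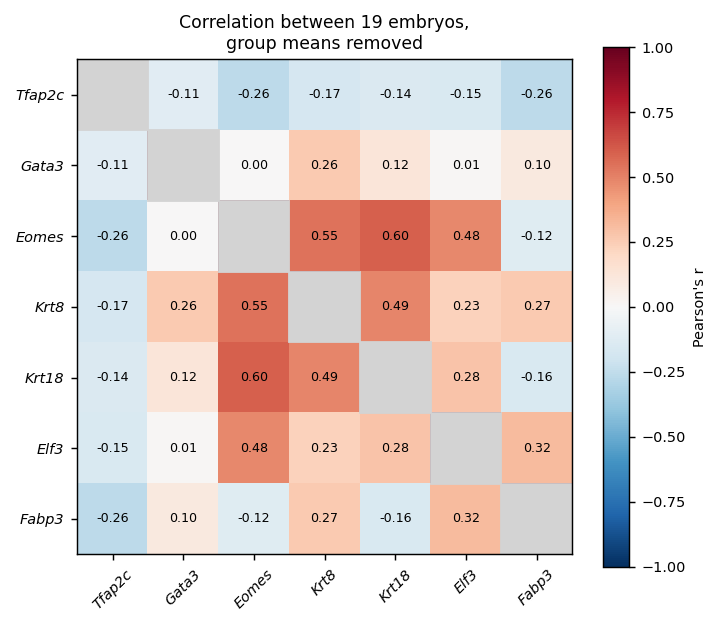
Pearson's r between the 7 tested genes over 19 embryos, on log2 CPM with the mean of each maternal genotype removed (red, positive; blue, negative; values in the cells). Eomes, Krt8, Krt18 and Elf3 had positive values with each other, up to 0.60, and Tfap2c had weak negative values with all 6 others, of which 3 changed sign without 1 embryo; no pair passed the adjusted test.

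For each tested gene, the other gene with the most similar profile over the 19 embryos, by the same measure, is given as a description. It was Ulk1, an autophagy kinase, for Tfap2c (r = 0.79), Cacna1h for Gata3 (0.79), Exoc6b for Eomes (0.85), Serping1 for Krt8 (0.83), Pomgnt1 for Krt18 (0.87), Tm2d2 for Elf3 (0.77) and Fabp3-ps1 for Fabp3 (0.86). None of these was a TE gene of the lists used here, and each was the highest value among all tested genes.

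Genes around this programme changed in both directions. Of 20 genes of Hippo signalling and its TEAD and Notch partners, all tested, 1 rose and 2 fell (15% against 9.35% of all genes). Tead4, the TEAD factor upstream of Cdx2 and Gata3, rose from a median of 253 CPM to 436 CPM (log2 fold change 0.90, SE 0.19, adjusted p = 0.0046), with 8 of 10 Ehmt2Mat embryos above every control. Rbpj, the DNA-binding factor of Notch signalling, fell by 1.14 on the log2 scale (SE 0.24, adjusted p = 0.00421), and Tead2 fell by 2.35 (SE 0.74, adjusted p = 0.0454), all by edgeR. The list had a median log2 fold change of -0.48. None of the 3 was called without the 6 embryos with most oviduct marker RNA, where 2.69% of all genes were. The log2 fold changes were then 0.85 for Tead4, -0.95 for Rbpj and -2.07 for Tead2, at edgeR adjusted p of 0.0803, 0.0801 and 0.335.

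Of 18 other genes of TE identity, 10 were tested and 1 fell (10% against 9.35% of all genes), so that the share called was near that of all genes. The 1 was Klf5, a Krüppel-like factor that acts in both the TE and the inner cells. It was between 155 and 366 CPM in controls (median 218 CPM) and between 37.1 and 129 CPM in Ehmt2Mat embryos (median 77.2 CPM), so that the groups did not overlap, as for 0.519% of all tested genes (0.179% with lower and 0.34% with higher levels in Ehmt2Mat embryos). This gave a log2 fold change of -1.49 (SE 0.23, adjusted p = 0.000486, edgeR). Klf5 was also called without the 6 embryos with most oviduct marker RNA (-1.32, adjusted p = 0.0148). The median log2 fold change of the list was 0.25, and -0.06 without those embryos.

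Of 19 genes of the TE epithelium (junctions, ion pump and water channels), 18 were tested, 1 rose and 2 fell (16.67% against 9.35% of all genes). Aqp9, a channel for water and glycerol, rose by 0.98 (SE 0.22, adjusted p = 0.00637), while Aqp3, another such channel, changed by -3.19 (SE 0.84, adjusted p = 0.0181) and Ocln, which encodes the tight junction protein occludin, by -1.57 (SE 0.47, adjusted p = 0.0338), all log2 fold changes by edgeR. Aqp3 was at or above 2.69 CPM in every control and had a median of 0.245 CPM in Ehmt2Mat embryos. Without the 6 embryos with most oviduct marker RNA, Aqp9 (1.04, adjusted p = 0.0348) and Aqp3 (-4.34, adjusted p = 0.0435) were also called, while Ocln (-1.53) had an adjusted p of 0.242.

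Inner cell regulators, the other side of the lineage choice, were lower wherever they were called. Of 13 genes 12 were tested, 0 rose and 4 fell (33.33% against 9.35% of all genes in either direction and 4.98% lower). Their median log2 fold change was -0.92 over the 12. As the lists were chosen with earlier results of these data known, this share is a description and not a test. The 4 called genes were Sall4 (-1.07), Klf4 (-1.67), Sox21 (-1.50) and Prdm14 (-2.07), with edgeR adjusted p between 0.00158 and 0.0346. Sall4, like the 0.179% of all tested genes above, was lower with no overlap between the groups. Without the 6 embryos with most oviduct marker RNA, 2 of the 12 were called, both lower, against 2.69% of all genes in either direction (1.37% lower). They were Sall4 (-1.05, adjusted p = 0.0411) and Klf4 (-1.40, adjusted p = 0.0294). Sox21 (-0.96) and Prdm14 (-2.03) then had adjusted p of 0.245 and 0.227, all by edgeR.

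Relatives of the 10 genes (other AP-2, GATA, CDX, T-box, ELF, keratin and FABP genes) were mostly too low to test. Of 29 genes 11 were tested, 5 were at 0 in every embryo, 1 rose and 2 fell (27.27% of those tested, against 9.35% of all genes). Gata6, a primitive endoderm factor, had medians of 646 CPM in controls and 108 CPM in Ehmt2Mat embryos (log2 fold change -1.85, SE 0.39, adjusted p = 0.0041). Tbx3 changed by -1.77 (SE 0.50, adjusted p = 0.0275) and Elf2, a broadly expressed ETS factor, by 0.94 (SE 0.30, adjusted p = 0.0486), all by edgeR. None of the 3 was called without the 6 embryos with most oviduct marker RNA, where Gata6 had -1.41 (adjusted p = 0.0594), Tbx3 -1.57 (adjusted p = 0.152) and Elf2 0.94 (adjusted p = 0.221).

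**Figure D5:**
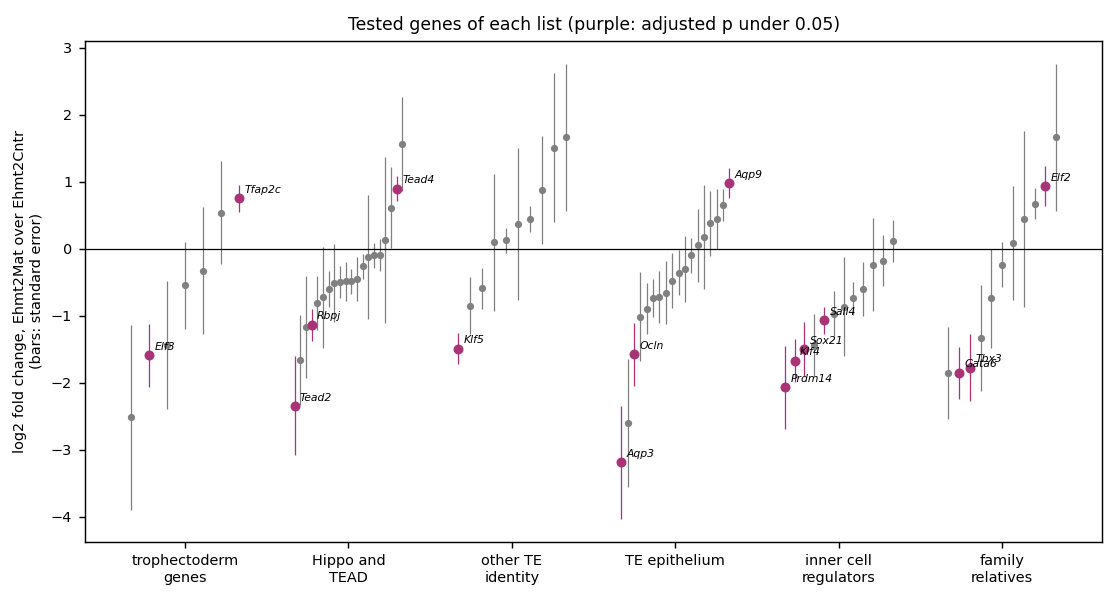
Log2 fold change in Ehmt2Mat over Ehmt2Cntr embryos, with standard errors, of every tested gene of the 10 trophectoderm genes and of 5 related lists (purple and named, adjusted p under 0.05; grey, not passed). Called genes of the trophectoderm lists lay on both sides of 0, while the 4 called inner cell regulators were all lower. The lists were chosen with earlier results of these data known.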

How the data were processed

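RNA of 19 single 8C embryos was analysed, 9 Ehmt2Cntr and 10 Ehmt2Mat, and control embryo 4 was not analysed here. The members and gene lists were chosen with earlier results of these data known. The authors deposited raw counts of reads per gene for each embryo, made according to the file headers with featureCounts 1.5.0-p1 on exons of Ensembl release 82 (GRCm38). A read was given to every gene it overlapped by at least 10 bases, and strand was not used, which mixes overlapping genes. Multi-mapping reads were kept if the alignments held any, which was not checked, so that near copies may also be mixed. The paper describes an alignment limited to uniquely mapping reads for its transposable elements. The submitters' processing notes name TopHat2, featureCounts and DESeq2, and the aligner behind these particular files is not given in the sources used here. The reads were single-end and 50 bases long, from a HiSeq4000 in the methods and a HiSeq1500 in the labels.

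Groups and zygotic genotypes came from the labels. Of 34937 gene identifiers, 34599 matched a symbol. The counts were filtered by group with filterByExpr, normalized by TMM and tested with the quasi-likelihood test of edgeR 4.0.16 in R 4.3.3 without covariates, with Benjamini-Hochberg adjustment over all genes tested and a threshold of 0.05. CPM use TMM-scaled library sizes. A separate fit compared Ehmt2M/Z with Ehmt2M/+ embryos. Genes below the filter were compared by exact permutation of embryos on log2(CPM + 1). Correlations used log2 CPM (prior count 2) with group means removed and 100000 permutations of embryos within groups (scipy 1.17.1, numpy 2.4.6, Python 3.11.15), and their smallest possible p is 1e-05. The code was checked on simulated data, where the edgeR step recovered 142 of 200 changed genes for this comparison and called 6 unchanged genes. Recovery at the size of change reported for Tfap2c or Elf3 was not tested.

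The genes named are the 10 members, Ehmt2, up to 5 called genes of each related list by adjusted p, the nearest gene by correlation for each tested member, and pseudogenes named after a member. Marker genes of other cell types, and genes that share sequence with a member, were named after their values were seen. The comparison was repeated with DESeq2 1.42.0, with 2 other normalizations (RLE and upper-quartile), no filter, at least 10 counts in every embryo, thinned counts, a replicate block, zygotic +/- embryos only, another prior count (0.5), and each embryo left out. Leaving out the embryos above 100 CPM of oviduct markers, taking that level as a covariate, and the fit without a block in the same 18 embryos were added after seeing the data.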

Additional observations from a re-analysis of the deposited data

Results flagged for a closer look

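Of 22 combinations of gene and maternal genotype examined, 6 had an embryo far from the rest of its group. The rate that chance gives was not measured for these values. A group mostly at 0, such as Tfap2a or Cdx2 in Ehmt2Mat embryos, is easily flagged by a single higher value. Values are log2(CPM + 1). Ehmt2Mat embryo 5 had 1.26 for Tfap2a, where the other Ehmt2Mat embryos had 0. Control embryo 10 had 3.48 for Gata2 against a control median of 0.0638, and this embryo had 426 CPM of oviduct markers. Ehmt2Mat embryo 10 had 1.35 for Cdx2 against a median of 0. Ehmt2Mat embryo 3 had 4.56 for Eomes and 5.33 for Krt8, against medians of 0.0768 and 2.3, and was the embryo with the most oviduct marker RNA (2987 CPM). Control embryo 7 had 7.01 for Elf3 against a median of 4.75, and also had the highest Cdx2, Gata3 and Eomes of all embryos.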

How the results depend on the processing

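Of the 10 genes, 2 were called under RLE, upper-quartile normalization, DESeq2, no filter, at least 10 counts in every embryo, thinned counts and the same 18 embryos without a block. The count was 0 with the replicate block, 0 in zygotic +/- embryos only, and, as alternatives chosen after seeing the data, 0 without the embryos above 100 CPM of oviduct markers and 0 with the oviduct marker level as a covariate. Leaving out each embryo gave between 1 and 2. Over all genes, DESeq2 called 2019, the replicate block 693, the fit without high oviduct markers 321, the covariate fit 10 and zygotic +/- embryos only 1, against 1099. The last 2 of these have few embryos or a covariate that differs between the groups. Tfap2c had log2 fold changes of 0.80 with the covariate and 0.73 with the block (adjusted p of 0.174 and 0.0822), and Elf3 of -1.61 and -1.34 (adjusted p of 0.297 and 0.102), against 0.75 and -1.59. In the same 18 embryos without the block, the adjusted p was 0.0323 for Tfap2c and 0.0434 for Elf3 (edgeR). Deviations of same-numbered embryos had r between -0.156 and 0.0856 over 9 pairs, and 0 controls were closest to their own number. So few pairs cannot decide whether the numbers stand for a shared factor, and the labels name no litter. Signs turned, each without a call, for Krt8 (0.75 with the replicate block, 0.39 in zygotic +/- embryos only, 0.16 and 0.02 without control embryo 6 or 7), Krt18 (-0.34 with the oviduct covariate, -0.0057 without Ehmt2Mat embryo 3) and Eomes (0.15 in zygotic +/- embryos only). Over the fits without 1 embryo, Krt8 lay between -1.32 and 0.16 and Krt18 between -0.0057 and 1.32. No other sign turned, and the cause was not tested. The counts of 0 for the zygotic comparison and of 0 correlated pairs held in every alternative run, the replicate block included for the pairs. The zygotic comparison had no replicate block. At under 1 CPM, as for Tfap2a, Cdx2 and Gata2 in most embryos, counts are few or absent, which limits what can be seen. Whether depth is the reason was not tested.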

Other observations

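Control embryos 6 and 7 were high for several of the 10 genes and not for others. They were the 2 controls with most Cdx2 (12.6 and 33.1 CPM), were among the 3 highest controls for Gata3 (16.9 and 33.2 CPM) and Krt8 (28.3 and 24.2 CPM), and were the 2 highest for Elf3 (45.7 and 128 CPM). Tfap2c went different ways in them, as embryo 6 was the highest control (302 CPM) and embryo 7 the lowest (141 CPM). Krt18 was highest in control embryo 10 (73.6 CPM), against 28.9 and 27.9 CPM in embryos 6 and 7, and neither had Gata2 above 0.0769 CPM or any read on Tfap2a. Their levels of Ehmt2 were also the highest of all embryos (253 and 216 CPM), and their oviduct markers were low (3.98 and 4.46 CPM). Control embryo 5, of the same zygotic genotype, had no reads on Cdx2, Eomes or Krt8. These embryos and genes were picked out after their values were seen, and no test was made.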
